A study of Mus musculus with 4 samples.

Results

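The receptors of the IL-6 and IL-12 cytokine families were compared between IL-17-producing CD8+ T cells (Tc17 cells) and cytotoxic T lymphocytes (CTLs). The 8 genes were *Il6ra*, *Il6st*, *Il27ra*, *Lifr*, *Osmr*, *Il12rb1*, *Il12rb2* and *Il23r*, out of 19938 genes with a probe set of their own on the array. Each was represented by 1 probe set, and 6 of the 8 were bright enough to enter the test, which covered 14953 genes. *Lifr* and *Osmr* were not, because their mean over the 4 arrays lay under 2.59, the 25th percentile of all genes. Both groups held wild-type CD8+ T cells from spleen and lymph node of C57BL/6 mice, which were described as naive in the study design and cultured for 2 days. CTL cultures received IL-2 and anti-IFN-γ. Tc17 cultures received IL-2 and anti-IFN-γ together with IL-6 and TGF-β. IL-12, IL-23, IL-27, LIF and oncostatin M were not among the additions named in the labels. Tc17 cells were primed with plate-bound anti-CD3 and soluble anti-CD28 antibodies per the study's methods. Each group had 2 biological replicates with 1 array each, 4 arrays in all. Whether the replicates were separate animals is not in the labels, and the p-values reflect the spread among these cultures, which may be technical. Most of that spread was estimated over all genes tested rather than from the arrays of a single gene.

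Cytokines of the IL-6 family signal through gp130, the shared chain encoded by *Il6st*, joined by a receptor chain that recognizes the cytokine. IL-6 uses the IL-6 receptor α-chain (*Il6ra*), IL-27 uses WSX-1 (*Il27ra*), and LIF and oncostatin M use the LIF and oncostatin M receptors (*Lifr*, *Osmr*). IL-12 and IL-23 share the β1-chain (*Il12rb1*), which pairs with the β2-chain (*Il12rb2*) to bind IL-12 and with *Il23r* to bind IL-23. These receptors have no kinase of their own and signal through JAK kinases and STAT factors. IL-6 activates mainly STAT3, which drives the differentiation of IL-17-producing T cells, and IL-12 activates STAT4, which drives IFN-γ production.

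The transcripts of both IL-6 receptor chains and of *Il27ra* were higher in Tc17 cells, and that of the IL-12 receptor β2-chain was lower. *Il6st* rose 3.67-fold and *Il6ra* 3.50-fold, *Il27ra* rose less (log2 difference of 0.59), and *Il12rb2* was 2.39-fold lower. Of the 6 tested receptors, *Il23r* reached the filter level only through its Tc17 values and is left out of the counts. Of the other 5, 3 rose, 1 fell and 1 did not pass the test (limma, Benjamini-Hochberg adjusted p under 0.05 over all genes tested). Over all 14953 genes, 15.7% passed, 8.22% being higher and 7.44% lower in Tc17 cells. In each of these 5 receptors both Tc17 arrays lay on one side of both CTL arrays, which was also the case for 54.4% of all genes tested. A difference of at least 2-fold that passed the test was found in 3 receptors (*Il6st*, *Il6ra* and *Il12rb2*) and in 3.09% of all genes tested. The median log2 difference of the 5 receptors was 0.59, against 0.02 for all genes tested.

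**Figure D1:**
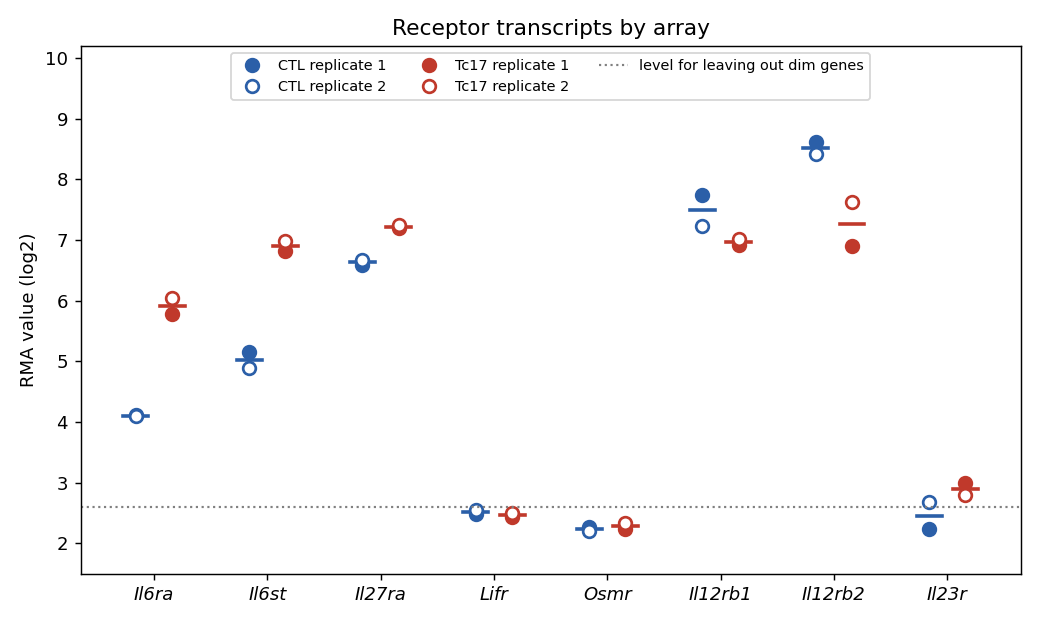
Deposited RMA values, taken as log2 (vertical axis), of the 8 receptor genes. Each circle is 1 array, with CTL in blue and Tc17 in red, replicate 1 filled and replicate 2 open. Horizontal bars are group means, and the dotted line marks the level of 2.59 under which genes were not tested. *Il6ra* and *Il6st* sat higher and *Il12rb2* lower in both Tc17 arrays, and *Lifr* and *Osmr* lay under the dotted line in all 4 arrays.

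The promoters of *Il6ra* and *Il6st*, which rose together, and of *Il12rb2*, which fell, are shown as the 250 bases before the gene start. The sequences are from RefSeq on GRCm38.p6, at chr3:89913197-89913446 on the minus strand for *Il6ra*, chr13:112463820-112464069 on the plus strand for *Il6st* and chr6:67376189-67376438 on the minus strand for *Il12rb2*. They are written 5′ to 3′ on the strand of the gene. Capitals mark matches to the STAT motif TTCNNNGAA and to the T-box motif TCACAC, searched on both strands.
Il6ra: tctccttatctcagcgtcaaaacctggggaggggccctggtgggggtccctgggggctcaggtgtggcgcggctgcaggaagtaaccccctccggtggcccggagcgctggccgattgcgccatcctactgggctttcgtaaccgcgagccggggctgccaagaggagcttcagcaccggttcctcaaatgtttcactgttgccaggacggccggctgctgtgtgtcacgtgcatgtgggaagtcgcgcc
Il6st: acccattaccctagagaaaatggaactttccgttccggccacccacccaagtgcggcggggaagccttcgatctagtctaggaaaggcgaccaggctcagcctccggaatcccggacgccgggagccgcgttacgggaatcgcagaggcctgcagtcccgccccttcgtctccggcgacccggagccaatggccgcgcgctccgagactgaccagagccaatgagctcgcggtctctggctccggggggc
Il12rb2: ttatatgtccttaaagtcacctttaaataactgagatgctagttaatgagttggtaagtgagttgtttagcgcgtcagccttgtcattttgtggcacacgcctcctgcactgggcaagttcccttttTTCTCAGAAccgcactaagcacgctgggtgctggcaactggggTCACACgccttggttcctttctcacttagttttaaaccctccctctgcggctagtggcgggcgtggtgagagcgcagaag

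Only the *Il12rb2* window of the 3 held a match. The STAT motif began 123 bases and the T-box motif 80 bases before the gene start, and they did not overlap. The AP-1 motif TGANTCA, also searched on both strands, had no match in any of the 3. Promoter sequences were found for 6 of the 8 receptors (all but *Il27ra* and *Il12rb1*), with 7 windows in all, since *Lifr* had more than one. The windows of *Il23r*, *Osmr* and *Lifr* held none of the 3 motifs. Among 32851 promoter windows of the same length, 7.02% held the STAT motif, 12.3% the T-box motif, 6.75% the AP-1 motif and 0.865% both the STAT and the T-box motif. The windows of *Il6ra* and *Il6st* were rich in G and C, at 65.2% and 66.0%, against a median of 52.4% for all windows. That of *Il12rb2* lay under the median, at 50%. A match describes these letters and does not show binding.

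The IL-6 receptor α-chain gene *Il6ra* was at 4.11 and 4.09 in the CTL arrays and at 5.78 and 6.04 in the Tc17 arrays (log2 RMA values of replicates 1 and 2). All Tc17 values lay above all CTL values, and the CTL replicates were close to each other. The log2 difference was 1.81 ± 0.14 (SE, n = 2 per group, 95% confidence interval 1.51 to 2.11, limma adjusted p = 9.09e-06). Over the 4 pairs of a Tc17 with a CTL array it ran from 1.67 to 1.95. *Il6ra* stood at place 61 among all genes tested when ordered from the largest increase.

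The gp130 gene *Il6st* was at 5.16 and 4.90 in CTLs and at 6.82 and 6.98 in Tc17 cells. The groups were far apart relative to their spread. The log2 difference was 1.88 ± 0.14 (95% confidence interval 1.57 to 2.18, limma adjusted p = 8.72e-06), with single pairs of arrays from 1.67 to 2.08, and it stood at place 56 from the largest increase. The increase of *Il6st* was close to that of *Il6ra*. The log2 ratio of *Il6st* to *Il6ra* within an array shifted by 0.07 in Tc17 cells relative to CTLs, and its values overlapped between the groups, with 0.12 and -0.12 in the CTL arrays and 0.12 and 0.02 in the Tc17 arrays around the CTL mean.

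The IL-27 receptor gene *Il27ra* was at 6.59 and 6.68 in CTLs and at 7.20 and 7.24 in Tc17 cells. Its replicates were the closest of the tested receptors over both groups, and the groups did not overlap. The log2 difference was 0.59 ± 0.13 (95% confidence interval 0.31 to 0.87, limma adjusted p = 0.00866). This call was lost without CTL replicate 1 (0.54, limma adjusted p = 0.0564) and without Tc17 replicate 2 (0.56, limma adjusted p = 0.0532), and when every row of the table was tested (limma adjusted p = 0.0861). The chains of the IL-27 receptor did not rise by the same amount. The log2 ratio of *Il6st* to *Il27ra* was 1.29 higher in Tc17 cells, at 1.23 and 1.34 above the CTL mean against 0.17 and -0.17 in the CTL arrays themselves.

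The other gp130 partners were dim in both groups. *Lifr*, the LIF receptor gene, was at 2.48 and 2.55 in CTLs and at 2.43 and 2.50 in Tc17 cells. *Osmr*, the oncostatin M receptor gene, was at 2.27 and 2.20 in CTLs and at 2.24 and 2.34 in Tc17 cells. The arrays of the groups overlapped for both genes. In a fit without the filter on dim genes, the log2 difference was -0.05 for *Lifr* (95% confidence interval -0.31 to 0.21, limma adjusted p = 0.894) and 0.06 for *Osmr* (95% confidence interval -0.21 to 0.32, limma adjusted p = 0.867). In RefSeq these are neighboring genes on chromosome 15. Background compresses the differences of dim probe sets, and the value table has no detection calls, so equal levels cannot be concluded from them. As a description of dim probe sets, 18 genes of unrelated tissues (such as liver, heart and pancreas) had group means between 2.06 and 3.86.

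The β2-chain gene of the IL-12 receptor, *Il12rb2*, was at 8.62 and 8.43 in CTLs and at 6.90 and 7.64 in Tc17 cells. It fell in both Tc17 arrays but by unequal amounts, with an SD of 0.52 in Tc17 cells against 0.14 in CTLs. The log2 difference was -1.25 ± 0.20 (95% confidence interval -1.70 to -0.81, limma adjusted p = 0.00173), at place 94 from the largest decrease. Single pairs of arrays ran from -1.72 to -0.79. The call was kept with each array left out in turn, with differences from -1.62 without Tc17 replicate 2 to -0.89 without Tc17 replicate 1, and was lost when every row of the table was tested (limma adjusted p = 0.0971).

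The shared β1-chain gene *Il12rb1* was at 7.74 and 7.24 in CTLs and at 6.91 and 7.02 in Tc17 cells. Both Tc17 arrays were lower than both CTL arrays, while the CTL replicates lay further apart (SD 0.36) than those of Tc17 cells (SD 0.08). The log2 difference of -0.52 ± 0.17 (95% confidence interval -0.89 to -0.15) did not pass the threshold (limma adjusted p = 0.0584). The difference shrank to -0.27 when CTL replicate 1 was left out and passed when CTL replicate 2 was left out (-0.77, limma adjusted p = 0.0106), and it also passed with an intensity trend (limma adjusted p = 0.0321), with a filter at the median (limma adjusted p = 0.0380) and with median centring (-0.57, limma adjusted p = 0.0392). The log2 ratio of *Il12rb2* to *Il12rb1* shifted by -0.73 in Tc17 cells, at -1.04 and -0.42 around the CTL mean, against -0.15 and 0.15 in the CTL arrays.

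*Il23r*, the specific chain of the IL-23 receptor, was dim. It was at 2.23 and 2.67 in CTLs and at 2.999 and 2.79 in Tc17 cells, with both Tc17 values above both CTL values. The CTL mean of 2.45 lay under the filter level of 2.59 and the Tc17 mean of 2.90 above it. The gene was thus tested only because of the group where it was higher, and all 4 values lay within the range of the genes of unrelated tissues. Its log2 difference of 0.44 ± 0.16 is therefore given as a description, with no test. Leaving out CTL replicate 1 gave 0.22, and leaving out CTL replicate 2 gave 0.67. *Il23r* and *Il12rb2* are neighbors on chromosome 6 in RefSeq, and their differences had opposite signs.

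**Figure D2:**
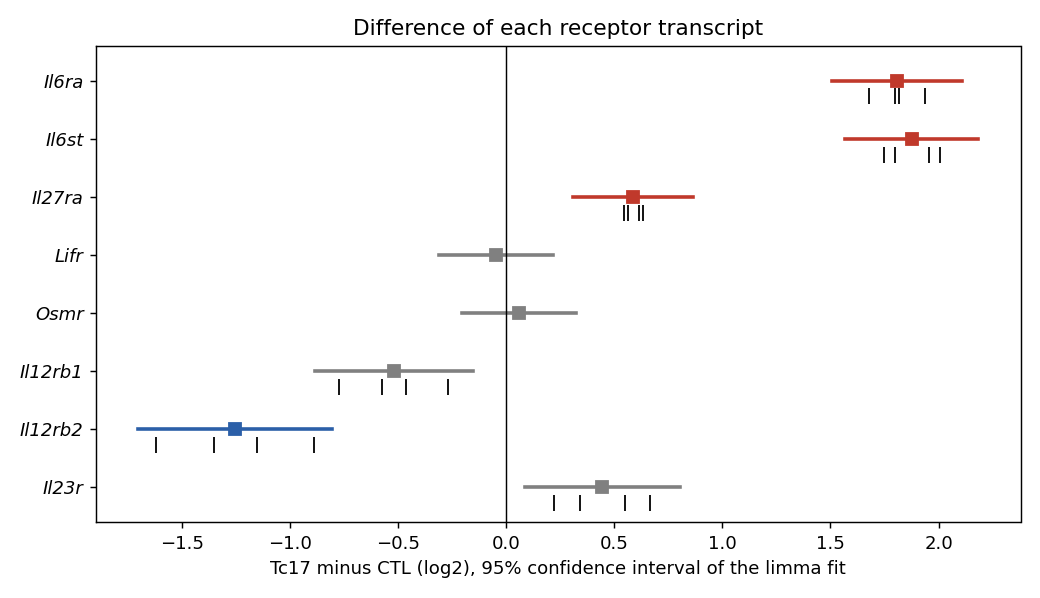
Tc17 minus CTL on the log2 scale (horizontal axis) for the 8 receptor genes. Squares are the differences, horizontal lines their 95% confidence intervals from limma, and short black ticks the difference with each array left out in turn. Red genes rose, blue fell and grey did not pass (*Il12rb1*), are a description only (*Il23r*) or, for *Lifr* and *Osmr*, come from a fit without the filter on dim genes and have no ticks. The ticks of *Il12rb1* reached from -0.77 to -0.27 and those of *Il23r* from 0.22 to 0.67.

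The widest shift between chains was that of *Il6st* against *Il12rb2*, a pair chosen after the values were seen. Their log2 ratio was 3.13 higher in Tc17 cells, at 3.42 and 2.84 around the CTL mean, and at 0.03 and -0.03 in the CTL arrays. In the 4 pairs of chains compared, the arrays of the groups did not overlap in any but *Il6st* with *Il6ra*. Of all single genes tested, 54.4% did not overlap. *Il6st* and *Il12rb2* were the receptors with the largest increase and decrease, so the lack of overlap in their ratio was fixed by that choice. The ratios of all 4 pairs carry no p-value, because an exact permutation test of 2 against 2 arrays cannot give a p under 0.333.

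**Figure D3:**
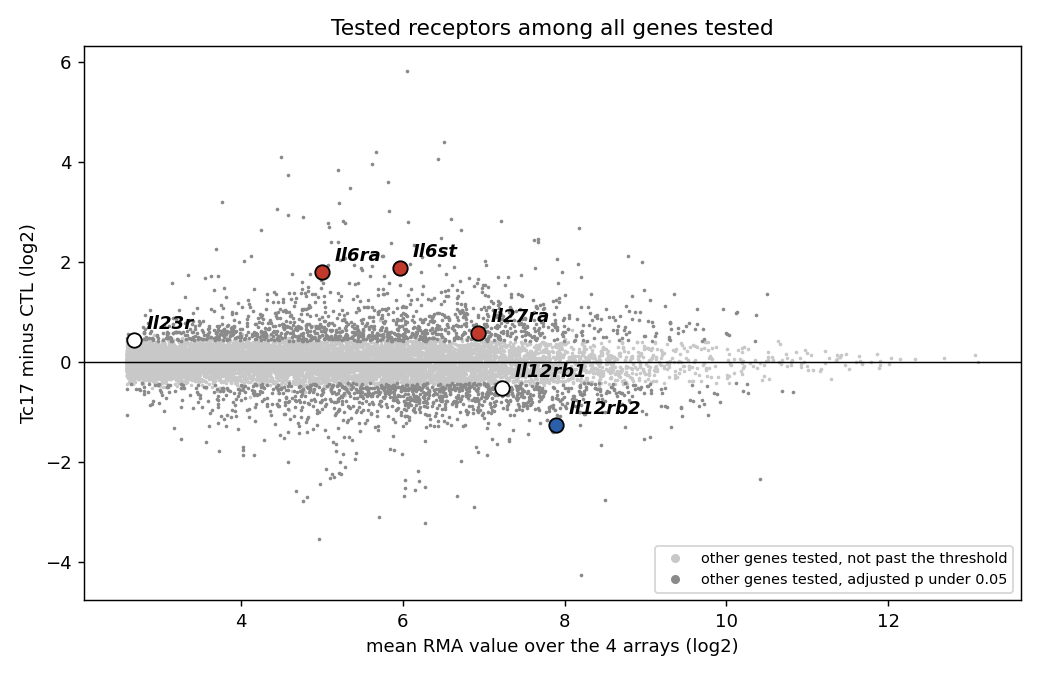
Mean RMA value over the 4 arrays (horizontal axis, log2) and log2 difference between Tc17 and CTL arrays (vertical axis) of the 14953 genes tested. Light grey points did not pass and dark grey points passed the threshold, and the 6 tested receptors are drawn in red (rose), blue (fell) and white (*Il12rb1*, not past, and *Il23r*, not counted). *Il6ra* and *Il6st*, at 1.81 and 1.88, lay well above the bulk of genes of like brightness, and *Il12rb2*, at -1.25, below it.

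The genes whose 4 array values ran closest to those of *Il6st*, each gene centred on its own mean, were *Socs3*, *Igflr1* and *Rora*. Their distances (the root of the summed squared log2 differences over the 4 arrays) were 0.09, 0.16 and 0.17. The closest to *Il12rb2* were *Zbp1*, *Ifi27l2a* and *Mx2*, at distances of 0.11, 0.15 and 0.23. *Zbp1* shared the unequal Tc17 arrays of *Il12rb2*, at 6.47 and 6.20 in CTLs and at 4.76 and 5.35 in Tc17 cells. With 4 arrays many genes have like profiles, and the distances are a description.

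Among the cytokines that bind these receptors, the transcripts of 3 were lower in Tc17 cells. Of 9 tested ligand genes, 1 rose, 3 fell and 5 did not pass, against 8.22% higher and 7.44% lower over all genes tested. The 9 ligand genes had a median log2 difference of -0.05. *Il23a*, the p19 subunit of IL-23, was at 6.29 and 6.03 in CTLs and at 3.36 and 3.39 in Tc17 cells, and fell by 2.78 ± 0.14 (limma adjusted p = 3.18e-07). Its Tc17 values lay within the range of the genes of unrelated tissues, where background compresses differences, so the size of this decrease may be understated. *Lif* was at 7.498 and 7.28 in CTLs and at 5.26 and 4.77 in Tc17 cells, and fell by 2.38 ± 0.17 (limma adjusted p = 6.13e-06). Both groups were well separated in these genes. *Osm*, the oncostatin M gene, was named after its values were seen. It fell by 0.83 ± 0.17 (limma adjusted p = 0.00785), with a difference of -0.55 that did not pass without CTL replicate 1 (limma adjusted p = 0.0609).

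The ligand gene that rose was *Clcf1*, a cytokine that signals through gp130 and the LIF receptor. Its log2 difference of 0.51 ± 0.15 (limma adjusted p = 0.0406) did not pass when either CTL replicate was left out (0.44 and 0.58) or without Tc17 replicate 2 (0.33), nor with median centring, cyclic loess or no filter on dim genes. *Il6* itself was at 2.09 and 2.12 in CTLs and at 2.09 in both Tc17 arrays, under the filter level. *Il12b*, the p40 subunit shared by IL-12 and IL-23, was also under it. *Il12a* and *Il27* differed by 0.05 and -0.05 and did not pass. The values of *Il12a*, from 2.68 to 2.82, lay within the range of the genes of unrelated tissues, so equal levels cannot be concluded for it. *Il6*, *Il12b*, *Il12a* and *Il27* were likewise named after their values were seen.

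Of 3 tested genes of other receptors in or near these families, 1 rose and none fell, with a median of 0.25. Over all genes tested, 8.22% were higher and 7.44% lower in Tc17 cells. The median is that of *Csf3r*, which did not pass and reached the filter level only through its Tc17 values. *Crlf2*, a chain of the TSLP receptor, rose by 0.53 ± 0.15 (limma adjusted p = 0.0342). *Crlf2* was at 5.63 and 5.50 in CTLs and at 5.91 and 6.27 in Tc17 cells. The difference did not pass when either CTL replicate was left out (0.60 and 0.46) or without Tc17 replicate 2 (0.35), nor with median centring (0.48).

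Downstream of the receptors, genes of kinases and STAT factors were higher or did not pass. Of 7 tested, 3 rose and none fell, against 8.22% higher and 7.44% lower over all genes tested. The 7 genes had a median log2 difference of 0.33. *Jak1*, the kinase that gp130 relies on, was at 8.11 and 8.09 in CTLs and at 8.96 and 9.03 in Tc17 cells, a rise of 0.90 ± 0.13 (limma adjusted p = 6.45e-04). *Stat3* rose by 0.68 ± 0.14 (limma adjusted p = 0.00603), from 9.17 and 8.94 to 9.66 and 9.82. When every row of the table was tested, *Stat3* did not pass (limma adjusted p = 0.0938), and 1 of the 3 genes that rose, *Jak1*, still did. The third was *Stat5b*, named after its values were seen (0.59 ± 0.13, limma adjusted p = 0.0105), which did not pass without CTL replicate 2 (0.49) or Tc17 replicate 2 (0.59). *Stat4*, the factor of the IL-12 receptor, was at 8.60 and 8.49 in CTLs and at 8.09 and 8.18 in Tc17 cells, and its difference of -0.41 ± 0.13 did not pass (limma adjusted p = 0.0541), although it did with an intensity trend, with median centring (-0.46) or when genes under the median were left out. *Stat4* was also named after its values were seen.

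Of 8 genes of receptor shedding and feedback, *Socs3*, the inhibitor that binds gp130, was the only one to pass, at 5.87 and 5.50 in CTLs and 7.51 and 7.65 in Tc17 cells (1.89 ± 0.15, limma adjusted p = 1.42e-05). With the mean of its probe sets it was 1.13. The median of these 8 genes was 0.14, and 15.7% of all genes tested passed in either direction. *Adam10* and *Adam17*, whose proteases can release the IL-6 receptor from the cell surface, differed by 0.17 and 0.07 and did not pass. Both were named after their values were seen.

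Known targets of both signaling routes were also measured, and the difference between the lists was not tested. Of 14 tested genes of the IL-6 and STAT3 list, 9 rose, 2 fell and 3 did not pass, with a median log2 difference of 1.69, against 8.22% higher and 7.44% lower over all genes tested. *Il17f* (5.81 ± 0.19) and *Il21* (3.21 ± 0.13) had the largest increases. The CTL values of both lay within the range of the genes of unrelated tissues. These increases may thus be understated, and their order is not fixed. Both CTL values of *Il21* (2.13 and 2.20) lay under the filter level, and it was tested only because of its Tc17 values. Its increase is therefore given as a description, and the count of 9 and the median include it. In the same list the survival kinase gene *Pim1* fell by 0.98 ± 0.14 and the repressor gene *Nfil3* fell by 0.83 ± 0.14. Among *Il17f*, *Pim1* and *Nfil3*, the last had the highest limma adjusted p, 0.00188. Of 12 tested genes of the IL-12 and STAT4 list, 2 rose, 5 fell and 5 did not pass, with a median of -0.28. *Havcr2*, named after its values were seen, was tested only because of its CTL values (means of 2.68 in CTLs and 2.51 in Tc17 cells). It was among the genes that did not pass, and the median includes it. *Ifng* fell by 4.25 ± 0.18 and *Gzmb*, the granzyme B gene, fell by 2.33 ± 0.13, the largest decreases of the list. The genes that rose were those of the IL-18 receptor chains, *Il18rap* (0.91 ± 0.16) and *Il18r1* (0.74 ± 0.16), with a limma adjusted p of 0.00266 and 0.00784. *Il18r1* did not pass without Tc17 replicate 1 (0.52, limma adjusted p = 0.0585), and neither gene passed when every row of the table was tested (limma adjusted p = 0.126 for *Il18r1* and 0.0938 for *Il18rap*). *Nfil3* did not pass in that test either (limma adjusted p = 0.0619). The study named *Il17a*, *Il17f*, *Il21*, *Rora*, *Ifng*, *Gzmb* and *Tbx21* as Tc17 or CTL genes. It also used these arrays to define its Tc17 and CTL gene sets, so these list counts are not independent of its groups.

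**Figure D4:**
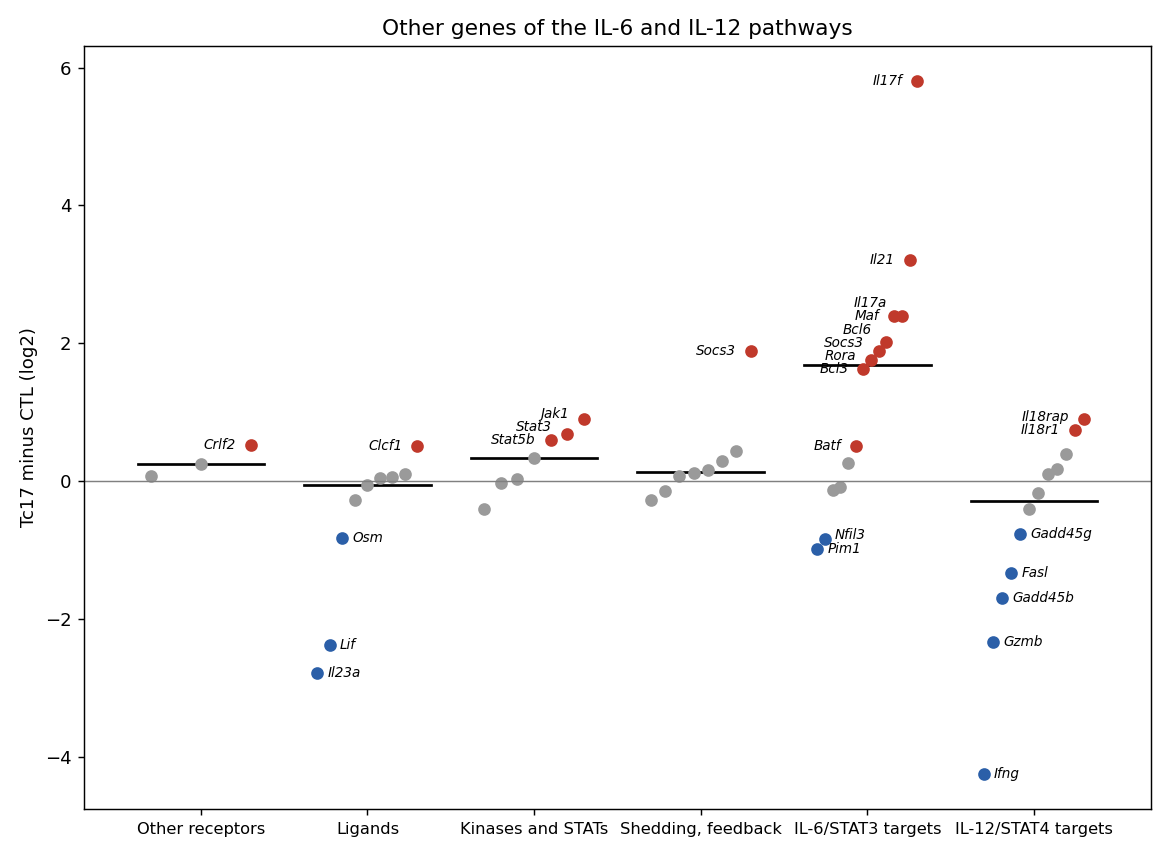
Tc17 minus CTL on the log2 scale (vertical axis) for the tested genes of 6 lists of the IL-6 and IL-12 pathways. Red points rose, blue points fell and grey points did not pass at a limma adjusted p under 0.05, and black bars are medians. The median was 1.69 for the IL-6 and STAT3 targets and -0.28 for the IL-12 and STAT4 targets, and *Socs3* appears in 2 lists. *Il21*, among the IL-6 and STAT3 targets, was tested only because of its Tc17 values. *Havcr2*, among the IL-12 and STAT4 targets, was tested only because of its CTL values.

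The labelled cell type was checked against markers. In both groups all 9 T cell markers with a probe set were bright, with group means from 5.95 to 10.63, and *Cd8a* was at 9.21 and 9.53 in CTLs and at 10.00 and 10.08 in Tc17 cells. Their summed linear intensity was 3926 to 4005 in CTL arrays and 5368 to 5577 in Tc17 arrays, with 5 genes rising and 1 falling, and its part in the receptor differences was not tested. In bulk samples, fewer cells of a type and less RNA per cell cannot be told apart. The summed intensity of 5 B cell markers was 47.1 to 58.6 in CTLs and 59.2 to 61.5 in Tc17 cells, and none of 3 tested passed. For 8 myeloid and dendritic cell markers it was 62.0 to 62.7 and 74.0 to 83.8, with *Cd68* rising and none of the other 4 tested passing, while *Lyz2*, *Cd14* and *Adgre1* were under the filter level. For 4 CD4 T cell markers it was 57.5 to 59.5 and 50.8 to 55.2, with *Foxp3* rising and *Zbtb7b* falling, and *Cd4* was at 3.21 and 2.92 in CTLs and at 3.28 and 2.83 in Tc17 cells. For 5 NK cell markers it was 71.9 to 96.5 and 38.8 to 82.9, with *Gzma* rising and *Eomes* falling. The study names EOMES among CTL transcription factors that are lower in Tc17 cells, so *Eomes* is not a marker of NK cells alone. The defining *Ncr1*, *Klrb1c* and *Klra8* were under the filter level. *Gzma* reached that level only through its Tc17 values (5.94 and 3.71), so its rise is a description. For 9 stromal and endothelial markers the summed intensity was 88.9 to 92.1 and 119 to 139, with *Pdpn* and *Pecam1* rising and no collagen gene passing. The part of these lists in the receptor differences was not tested either. Of 13 tested genes of unrelated tissues 1 rose (*Syn1*) and none fell. The shares over all genes tested were 8.22% higher and 7.44% lower in Tc17 cells. All genes named in these marker lists beyond *Cd8a* were chosen after their values were seen.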

How the data were processed

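Total RNA was amplified and hybridised to whole-transcript arrays, 1 per sample. The authors deposited RMA values, taken here as log2. RMA corrects background, normalises arrays by quantiles and summarises each probe set. Not given in the sources used here were the RMA version and the log base. Deposited values ran from 1.18 to 13.70, with array medians from 3.18 to 3.20. A shift of all transcripts between groups cannot be seen after quantile normalisation. For arrays, their number limits the precision.

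Of 35557 rows, the platform annotation paired 21789 with 1 gene symbol and 1621 with several, and 12147 were unnamed here. Only rows with 1 symbol were used, and 0 of those with several named a receptor. Entrez identifiers of 21698 probe sets matched RefSeq, which changed 0 symbols. The 19938 genes were each represented by their brightest probe set over the 4 arrays. Genes with a mean under the 25th percentile were not tested. Groups came from the labels. The groups were compared by lmFit and eBayes of limma 3.58.1 in R 4.3.3, unpaired and two-sided, with Benjamini-Hochberg adjustment, which was tested on simulated data. The prior had 8.98 degrees of freedom, added to 2 residual ones.

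The receptors and the 14 gene lists were chosen with earlier results of these data known. The genes named are the 8 receptors, the 2 largest increases and 2 largest decreases past the threshold in each pathway list (or the smallest p), marker genes, and the 3 closest profiles to *Il6st* and *Il12rb2*. Other genes named (*Osm*, *Il6*, *Il12a*, *Il12b*, *Il27*, *Stat4*, *Stat5b*, *Adam10* and *Adam17* among them) fall outside this rule and were picked with their values known. The alternatives were other filters, robust moderation with an intensity trend, median centring, cyclic loess, a test of every row, the mean of probe sets, a replicate block, the thresholds of the study's RNA-seq, and leaving out single arrays. When 1 array is left out, the lone sample of its group is assumed to vary like the other group. Python 3.11.15 with pandas 2.3.3 and matplotlib 3.10.9 served for tables and plots.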

Additional observations from a re-analysis of the deposited data

How the results depend on the processing

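*Il6ra* and *Il6st* kept their direction and call in all 12 alternatives, with log2 differences from 1.68 to 1.94 and from 1.75 to 2.01. When every row of the table was tested, *Il27ra* (0.59) and *Il12rb2* (-1.25) lost their calls, the count of receptors lower in Tc17 cells fell from 1 to 0 and the count over all features from 2342 to 684, over 35557 rows in place of 14953 genes. Of the other genes of the pathway, *Batf*, *Clcf1*, *Crlf2*, *Gadd45g*, *Il18r1*, *Il18rap*, *Nfil3*, *Osm*, *Stat3* and *Stat5b* also lost their calls there. *Il12rb1* passed with an intensity trend and robust moderation (-0.52), median centring (-0.57) and a filter at the median (-0.52), which gave 2 receptors lower in Tc17 cells under each of the 3. At the thresholds of the study's RNA-seq 919 genes passed, with 2 receptors higher and 1 lower in Tc17 cells. *Il27ra* (0.59) lay under the required log2 difference of 0.75.

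Without each array in turn, the log2 difference ran from 0.54 to 0.63 for *Il27ra*, from -0.77 to -0.27 for *Il12rb1*, from -1.62 to -0.89 for *Il12rb2* and from 0.22 to 0.67 for *Il23r*. The receptors higher in Tc17 cells then numbered 2 to 4 (the 4 include *Il23r*), those lower 1 to 2, and the genes past the threshold 1421 to 1924. No result reversed. The cause of these changes was not tested. Samples of the same replicate number did not deviate together (correlation 0.02 over genes), and with the replicate number as a block 2322 genes passed, 3 receptors rose and 1 fell. The groups have 2 arrays each, and dim probe sets such as *Il23r* limit what can be seen.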
